A study of Mus musculus with 6 samples.

Results

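The accessible regions of naive CD4+ T cells were compared with those of CD4+ T cells after 48 h of Th17 culture. Of the 3 deposited peak lists of the series, 2 were used, 1 for each condition. Merging peaks of both lists wherever they had 1 bp or more in common gave 67808 regions. A region with a 48 h peak only was called gained (15093 regions), a region with a naive peak only was called lost (29515), and a region with peaks of both lists was called shared (23200). The terms refer to the lists alone, since a stretch without a listed peak is not shown to be closed chromatin.

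The cells came from wild-type C57BL/6 mice. The naive CD4+ cells were untreated. The Th17 cells were grown from such naive cells for 48 h with 0.25 µg/mL anti-CD3ε and 1 µg/mL anti-CD28, antibodies that take the place of antigen and of costimulation, in plates first coated with hamster IgG, together with the cytokines TGF-β at 0.1 ng/mL and IL-6 at 20 ng/mL. The labels give each condition 2 libraries from independent biological replicates, with 10000 cells lysed per library. Each list is attached to the record of replicate 1, and the sources used here do not say whether it came from 1 library or from both. The difference between the lists therefore has no replicate check and no p-value is given. The comparison also joins activation, cytokines and time in culture, which cannot be told apart in this design.

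ATAC-seq uses the transposase Tn5 to insert sequencing adapters into DNA that nucleosomes leave exposed, so a peak marks an accessible stretch such as a promoter or an enhancer. Naive CD4+ T cells are small quiescent cells held in that state by factors such as FOXP1, FOXO1, KLF2, TCF-1 and LEF1. When the T cell receptor is engaged in the presence of TGF-β and IL-6, STAT3, BATF and IRF4 act with nuclear receptors such as RORα to set up the Th17 program, whose products include IL-17A, IL-17F, IL-21, the IL-23 receptor and the chemokine receptor CCR6.

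Several genes of these programs, and of other T cell gene lists, had a promoter that was covered by a peak of 1 list only. The promoter windows below are chosen examples in which no peak of the other list lay within 1 kb of the start site. Other windows that met this condition are not shown. Among them were Igfbp4, a gene of naive cells, and Gzmb at 48 h only, and Foxp1 and Gzma in naive cells only. Each runs from 250 bases before to 50 bases after a transcription start, 5′ to 3′ on the strand of the gene, from RefSeq on GRCm38.p6, and capitals mark the bases under the deposited peak. The first 4 were covered at 48 h only and the last 3 in naive cells only.
Il23r (chr6:67491806-67492105, minus strand): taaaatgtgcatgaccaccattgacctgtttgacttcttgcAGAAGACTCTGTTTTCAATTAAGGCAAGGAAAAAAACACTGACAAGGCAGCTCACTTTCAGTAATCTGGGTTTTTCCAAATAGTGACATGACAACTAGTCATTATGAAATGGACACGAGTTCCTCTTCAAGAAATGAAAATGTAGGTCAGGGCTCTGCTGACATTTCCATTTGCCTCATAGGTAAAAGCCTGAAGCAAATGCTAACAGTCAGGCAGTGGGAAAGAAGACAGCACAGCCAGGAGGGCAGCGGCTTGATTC
Ccr6 (chr17:8242276-8242575, plus strand): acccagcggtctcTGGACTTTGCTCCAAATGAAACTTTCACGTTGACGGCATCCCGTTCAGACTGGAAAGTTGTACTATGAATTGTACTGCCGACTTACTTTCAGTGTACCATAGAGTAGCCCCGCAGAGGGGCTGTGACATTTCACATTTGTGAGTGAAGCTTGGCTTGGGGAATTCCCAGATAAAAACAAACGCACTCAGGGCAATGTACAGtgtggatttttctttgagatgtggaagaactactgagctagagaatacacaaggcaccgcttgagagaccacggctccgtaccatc
Il21 (chr3:37232587-37232886, minus strand): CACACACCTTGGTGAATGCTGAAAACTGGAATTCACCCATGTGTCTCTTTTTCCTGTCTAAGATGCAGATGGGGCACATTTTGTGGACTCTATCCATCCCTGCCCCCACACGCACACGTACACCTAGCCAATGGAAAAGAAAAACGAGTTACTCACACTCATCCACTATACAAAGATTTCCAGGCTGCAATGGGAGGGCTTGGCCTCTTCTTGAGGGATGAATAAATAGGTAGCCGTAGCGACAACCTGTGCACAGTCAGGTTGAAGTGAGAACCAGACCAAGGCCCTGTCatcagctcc
Batf3 (chr1:191098164-191098463, plus strand): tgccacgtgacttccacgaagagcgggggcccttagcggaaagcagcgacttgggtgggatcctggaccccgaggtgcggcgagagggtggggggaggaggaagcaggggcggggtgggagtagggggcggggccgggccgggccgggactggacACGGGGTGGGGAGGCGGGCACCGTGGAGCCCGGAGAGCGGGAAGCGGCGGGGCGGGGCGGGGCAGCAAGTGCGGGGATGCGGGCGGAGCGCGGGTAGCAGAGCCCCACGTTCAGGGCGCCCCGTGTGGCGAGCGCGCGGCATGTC
Il7r (chr15:9529827-9530126, minus strand): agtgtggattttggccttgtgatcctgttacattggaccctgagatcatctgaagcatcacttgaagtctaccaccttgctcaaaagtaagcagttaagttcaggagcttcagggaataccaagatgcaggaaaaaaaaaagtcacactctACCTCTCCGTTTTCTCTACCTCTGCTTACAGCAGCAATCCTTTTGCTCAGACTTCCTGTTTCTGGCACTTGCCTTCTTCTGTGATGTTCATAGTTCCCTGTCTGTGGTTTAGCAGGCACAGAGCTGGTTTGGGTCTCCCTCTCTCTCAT
Ccr4 (chr9:114496495-114496794, minus strand): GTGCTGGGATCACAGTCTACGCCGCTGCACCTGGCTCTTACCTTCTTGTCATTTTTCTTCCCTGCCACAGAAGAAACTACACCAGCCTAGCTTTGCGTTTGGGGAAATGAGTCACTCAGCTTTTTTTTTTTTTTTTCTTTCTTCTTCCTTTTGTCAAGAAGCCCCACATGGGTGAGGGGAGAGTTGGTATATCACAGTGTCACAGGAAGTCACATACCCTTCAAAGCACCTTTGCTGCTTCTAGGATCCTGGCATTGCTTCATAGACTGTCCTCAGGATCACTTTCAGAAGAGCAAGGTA
Cd247 (chr1:165788431-165788730, plus strand): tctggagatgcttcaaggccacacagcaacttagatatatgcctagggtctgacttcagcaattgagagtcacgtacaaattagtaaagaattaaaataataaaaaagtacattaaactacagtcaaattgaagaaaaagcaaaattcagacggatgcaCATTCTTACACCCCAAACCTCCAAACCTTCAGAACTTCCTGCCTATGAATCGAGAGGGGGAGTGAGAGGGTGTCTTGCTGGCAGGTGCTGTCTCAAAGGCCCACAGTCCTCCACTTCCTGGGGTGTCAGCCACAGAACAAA

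Il23r encodes the signalling chain of the IL-23 receptor, Ccr6 the receptor for CCL20, Il21 a cytokine that Th17 cells make and respond to, and Batf3 an AP-1 family factor. Il7r encodes the receptor chain for the survival cytokine IL-7, Ccr4 a chemokine receptor of Th2 and skin-homing cells, and Cd247 the ζ chain of the T cell receptor. The 48 h peak covered 259 of the 300 bases at Il23r, with a score of 104, and 291 of 300 at Il21, with a score of 91. At Ccr6 it covered 201 bases (score 65) and at Batf3 145 bases (score 53). The score is the authors' own value for a peak in the 48 h list, it has a median of 69 there, and its scale is not stated. The naive list has no scores. The naive peak covered all 300 bases at Ccr4, 149 at Il7r and 141 at Cd247, and was 611, 199 and 332 bp wide at these genes.

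In these windows 15 short motifs were searched on both strands. The RORE core AGGTCA, the letters at the heart of ROR binding sites, was found under the 48 h peak of Il23r at base -66, counted from the start site. The NFAT motif TGGAAA lay under the 48 h peaks of Il23r, Ccr6 and Il21. Under the naive peaks, Ccr4 held the AP-1 motif TGANTCA at -143, Il7r the RUNX motif TGTGGT at 4 and Cd247 the TCF/LEF motif CTTTGA at 2. Over all 21263 promoter windows, 14.7% held the RORE core, 19.3% the NFAT motif, 6.99% the AP-1 motif, 14.97% the RUNX motif and 14.4% the TCF/LEF motif. A match is a description of the letters and not a bound site.

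The naive list was the longer one. Its 53259 peaks covered 19.8 Mb and had a median width of 273 bp (quartiles 170 and 484 bp). The 40624 peaks of the 48 h list covered 12.6 Mb, and their median width was 234 bp (151 and 400 bp). Of the 52715 regions with a naive peak, 56.0% were lost (exact Clopper-Pearson 95% interval 55.6 to 56.4%), and of the 38293 regions with a 48 h peak, 39.4% were gained (38.9 to 39.9%). These intervals and those that follow reflect counting error alone, since cultures were not replicated in the lists. The read depth of the libraries is unknown, so the part of depth in the lengths of the lists was not tested. Since the cells were assayed in bulk, fewer cells with an open site and less signal per cell cannot be told apart.

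To compare lists of the same length, the widest 40624 peaks of each were kept. This left the 48 h list whole, with peaks from 100 bp, and removed 12635 naive peaks, so that the narrowest naive peak was 166 bp. There were then 17074 gained, 19038 lost and 21221 shared regions. With equal numbers of peaks, gained and lost numbers must lie close together, because shared regions draw on both lists. Of the naive regions 47.3% were lost (46.8 to 47.8%), and of the 48 h regions 44.6% were gained (44.1 to 45.1%). Of the gained regions at this length, 11.6% (1981 regions) had a naive peak in the full list that was too narrow to be kept.

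At shorter lengths the shares lost and gained also lay close, as lists of equal length require. With the widest 20000 peaks of each list, 41.3% of naive regions were lost and 39.7% of 48 h regions gained, and with the widest 10000 the shares were 35.1% and 34.5%. Many of these regions had a peak in both full lists. At 10000 peaks the narrowest naive peak was 584 bp and the narrowest 48 h peak 404 bp, and 68.6% of the lost and 61.8% of the gained regions had a peak of the other list that ranked too low by width. At 5000 peaks these shares were 89.7% and 85.6%. In lists as short as these, most gained and lost regions were thus regions with a peak in both full lists.

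**Figure D1:**
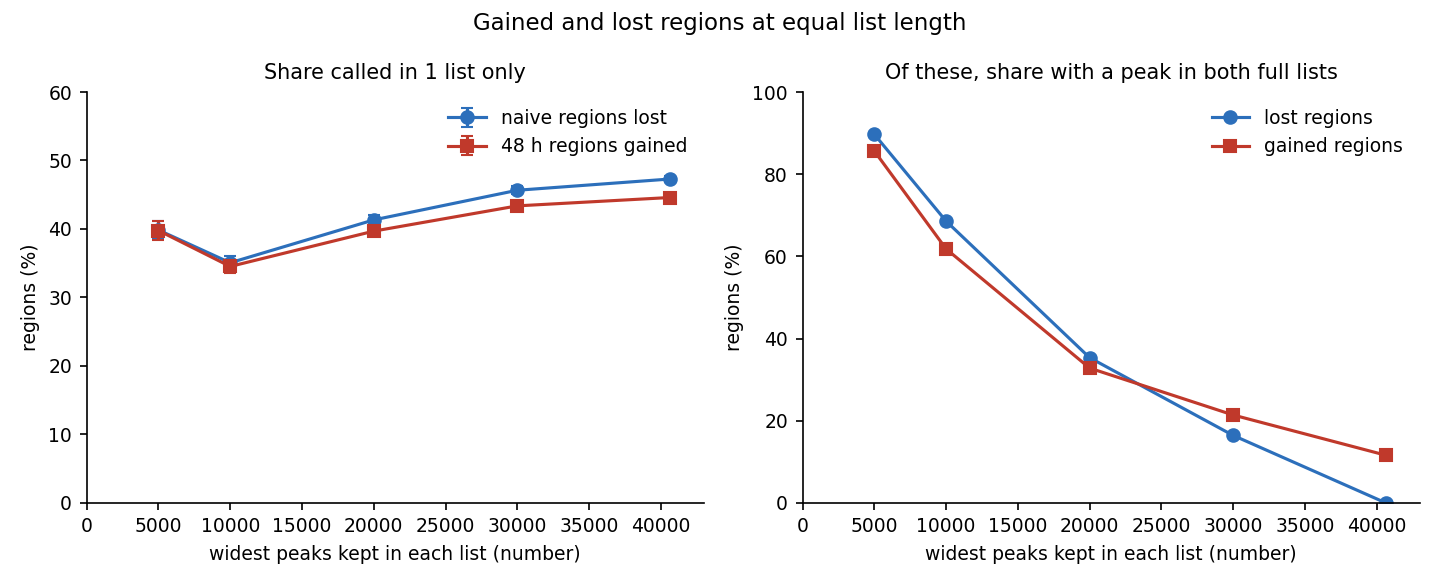
Left, the share of naive regions lost and of 48 h regions gained (y axis, %, with exact 95% intervals) against the number of widest peaks kept in each list (x axis). Right, of these lost and gained regions, the share that had a peak in both full lists. Both shares on the left stay between 34.5 and 47.3%, while on the right the share with a peak in both full lists goes from 89.7% of lost regions at 5000 peaks to 0% at 40624.

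Lost and gained regions were narrow, and shared regions were wide. The median naive peak was 202 bp in lost regions and 461 bp in shared ones, and the median 48 h peak was 190 bp in gained and 303 bp in shared regions. Of naive regions with a peak of 100 to 149 bp, 85.2% were lost, against 50.3% at 300 to 499 bp, 19.0% at 500 to 999 bp and 1.48% (35 of 2370) at 1000 bp or more. Of 48 h regions, 5006 of 9101 were gained at 100 to 149 bp, 32.1% at 300 to 499 bp and 1.04% (6 of 575) at 1000 bp or more. The 48 h score ran the same way. Among 48 h regions 56.3% were gained in the lowest class of scores (30 to 48) and 17.5% in the highest (118 to 1260). Width and score are 2 readings of the same peaks, with a Spearman correlation of 0.692 over the 40624 peaks of the 48 h list.

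The shares differed by position as well. Regions within 1 kb of an end of a protein-coding gene, a stand-in for promoters because the gene table gives no strand, were mostly shared. Of 13721 naive regions there 25.5% were lost (24.8 to 26.3%), against 66.8% inside genes (66.1 to 67.4%) and 66.7% between genes (66.0 to 67.4%). Of the 48 h regions, 13.3% were gained near gene ends, 50.7% inside genes and 51.5% between genes. At equal list length the same order held, with 17.2%, 59.5% and 60.6% lost and 16.3%, 56.4% and 58.2% gained.

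The difference by position was also present among peaks of like width. At 300 to 499 bp, 22.9% of naive regions near gene ends were lost (21.2 to 24.7%) and 57.4% of those farther away (56.4 to 58.5%). At 500 to 999 bp the shares were 3.55% and 35.8%. For gains the shares at 300 to 499 bp were 7.995% near gene ends and 46.3% farther away. The gap nearly closed for losses among the narrowest peaks, of 100 to 149 bp, where 83.1% near gene ends and 85.5% farther away were lost.

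**Figure D2:**
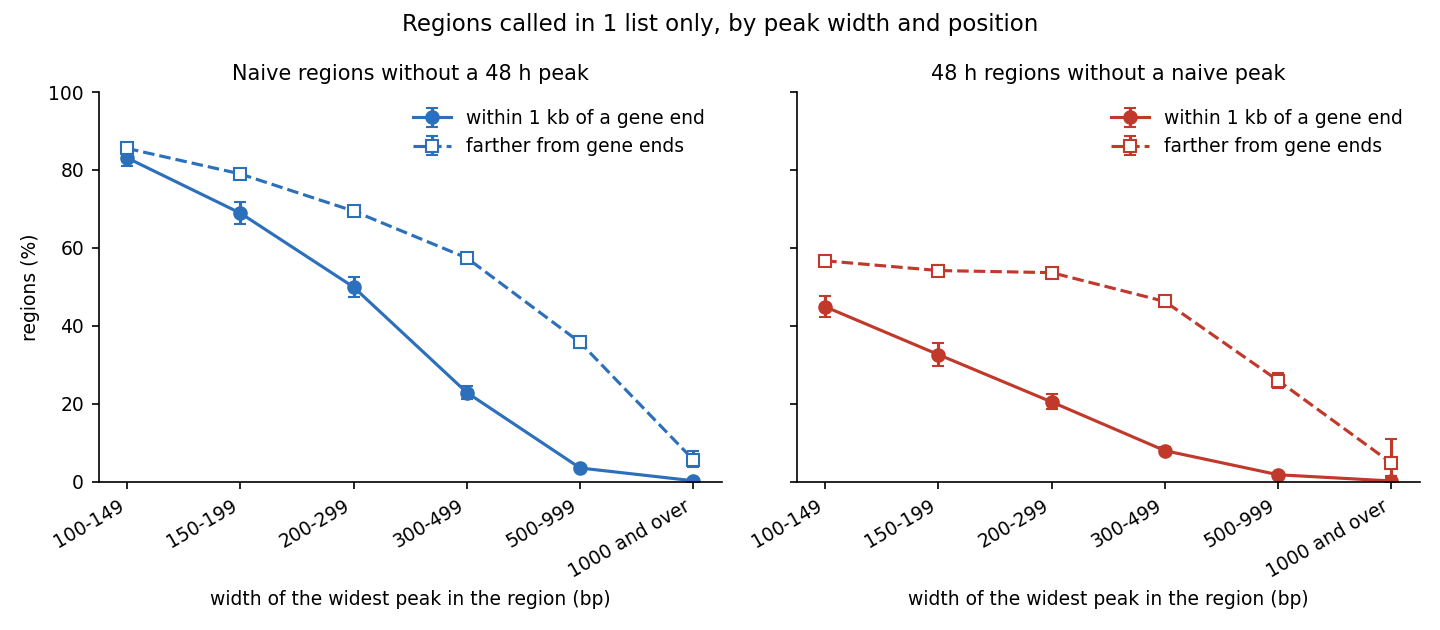
Share of naive regions that were lost (left) and of 48 h regions that were gained (right), in % with exact 95% intervals, by the width class of the widest peak of that list in the region (x axis, bp), for regions within 1 kb of a gene end (filled circles, solid lines) and farther away (open squares, dashed lines). Wide regions near gene ends were almost always shared, and the lines come closest at 100 to 149 bp for losses and at 1000 bp and over for gains.

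Distance to the nearest RefSeq transcription start gave the same picture. Within 1 kb of a start, 23.1% of naive regions were lost and 11.7% of 48 h regions gained. Between 1 and 10 kb these shares were 63.8% and 44.8%, and at 100 kb or more they were 70.0% and 56.2%. The median distance to a start was 32118 bp for gained, 27828.5 bp for lost and 7368.5 bp for shared regions. Gained and lost regions thus lay at like distances, and shared regions lay closer to starts.

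Among shared regions, the 48 h peak was usually the narrower one. In 20600 regions with 1 peak of each list, it was narrower in 16159 (78.4%, 77.9 to 79.0%) and wider in 4369, with a median ratio of 48 h to naive width of 0.754. Near gene ends the ratio was 0.787, inside genes 0.709 and between genes 0.723. A single naive peak was matched by more than 1 peak at 48 h in 2068 shared regions, and the reverse held in 424. The narrower 48 h peaks were thus found in every kind of place, and the part of depth and calling in them was not tested.

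Regions were then assigned to protein-coding genes, to each one that they overlapped after its body was extended by 10 kb at both ends. Of 21887 genes, 16077 had at least 1 region. Losses outnumbered gains at 8219 genes (51.1%) and gains outnumbered losses at 3276 (20.4%), and 4582 had equal numbers. At equal list length, 5414 of 15860 genes (34.1%) had more lost and 4956 (31.2%) more gained. All 3276 genes with more gains kept this order, as they must when only naive peaks are removed. Of the 8219 genes with more losses, 5414 kept it, 2256 became equal and 549 turned to more gains. These percentages are the background for the gene lists below. The balance of a gene is its number of gained minus its number of lost regions, and it was 5 or more at 91 genes (0.566%) and -5 or less at 880 (5.47%). As a count, it is not scaled to gene length or to the number of regions, of which the median gene with a region had 3.

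In numbers of gained against lost regions, the genes of the Th17 program stood on the side of gains, although most of their naive regions were lost. The list of 18 Th17 lineage genes had 53 gained, 33 lost and 15 shared regions, so that gains made up 61.6% of the regions in 1 list only (50.5 to 71.9%), against 33.1% at all protein-coding genes. Of the 48 naive regions of the list, 68.75% were lost (53.75 to 81.3%), against 52.45% at all genes and 71.2% in the list of naive genes. At equal list length 61.5% were lost, against 43.1% at all genes. Of 17 members with a region, 12 (70.6%) had more gained than lost and 3 (17.6%) more lost than gained. At equal list length the list had 53 gained and 24 lost regions. It also had more gains with the widest 20000 peaks of each list, 28 against 7, and with the widest 10000, 11 against 1. Over the genome there were 7683 gained against 8223 lost regions at 20000 peaks and 3417 against 3500 at 10000. Of those gained regions, 32.8% and 61.8% had a peak in both full lists, so gains of the Th17 list at these lengths can also be regions shared in the full lists. With only the 48 h peaks at or above the median score of their list, a setting that shortens the 48 h list alone, losses outnumbered gains and the balance of the list was -14. The median balance of its members was 1, against -1 over all genes, and at equal length 2 against 0.

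The cytokine genes Il17a and Il17f, the products that name the lineage, had 0 naive regions and 3 and 1 regions at 48 h. At Il17a (chr1:20730905-20734496) the highest score, 166, belonged to the region chr1:20740424-20740862, 5927 bp beyond the gene. A second region at chr1:20736587-20736827 had a score of 59, and the third, at chr1:20731672-20731858 by the gene end, had a score of 41. The nearest naive peak lay 78743 bp away from the first of these. Il10, which encodes an anti-inflammatory cytokine, and Ccl20, the ligand of CCR6, each had 2 regions at 48 h and 0 in naive cells. Il21 had 4 gained, 1 lost and 1 shared region. Il22 had no region in either list.

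Among the receptors, Il1r1, for IL-1, had 5 gained and 2 lost regions, and Ccr6 had 3 gained and 1 lost. Ltb4r1, a leukotriene B4 receptor, also had 3 gained and 1 lost. Il23r went the other way in number. It had 4 gained, 8 lost and 1 shared region, and its gained regions included the promoter shown above and chr6:67459391-67459697 inside the gene, with a score of 221. Its lost regions were 123 to 479 bp wide. The locus thus had other regions at 48 h than in naive cells, and fewer of them.

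Of the transcription factors, Rora (chr9:68653404-69388246), which encodes RORα, had 17 gained, 9 lost and 10 shared regions, and its widest gained region, chr9:69155849-69156894, was 1046 bp wide with a score of 116. Maf, a regulator of IL-10 and IL-21, had 1 gained and 1 shared region, Ahr, the aryl hydrocarbon receptor, had 1 shared region only, and Hif1a, a hypoxia-response factor, had 2 gained and 4 lost. Of the others, Tmem176a had 1 gained region, Tmem176b 1 gained and 1 lost, and the cytokine gene Il24 had 2 lost. Rora alone carried 17 of the 53 gains. Without it the list had 36 gained and 24 lost regions.

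The genes of the naive and quiescent state stood on the side of losses in the full lists. The 20 members had 54 gained, 198 lost and 80 shared regions, so that gains made up 21.4% of the regions in 1 list only (16.5 to 27.0%, against 33.1% at all genes). More losses were counted at 17 of 20 members (85.0%, against 51.1% of all genes) and more gains at 1. At equal list length there were 67 gained and 123 lost regions, and 13 members had more losses. This order did not hold in shorter lists. With the widest 20000 peaks of each list there were 38 gained and 34 lost regions, and with the widest 10000 there were 19 and 10. Over the genome, 32.8% of the gained and 35.3% of the lost regions at 20000 peaks had a peak in both full lists. The lost regions of these members in the full lists were narrow, with a median naive width of 194.5 bp, close to the 198 bp over all genes.

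Foxp1 (chr6:98925342-99522746), which encodes a forkhead factor that keeps T cells quiescent, had 78 naive regions and 34 regions at 48 h, of which 22 were shared, so that 12 were gained and 56 lost. Its balance of -44, a count not scaled to its many regions, was the lowest of all genes in the full lists. For comparison, 66.8% of all naive regions inside genes were lost. At equal length Foxp1 had 16 gained and 39 lost regions. With the widest 20000 peaks of each list it had 13 gained and 10 lost. Naive peaks had to be 353 bp wide to be kept there and 48 h peaks 237 bp, so some of these gains were shared in the full lists. An example was chr6:99274227-99274949, with a naive peak of 136 bp and a 48 h peak of 723 bp. Bach2, which restrains effector genes, had 52 naive and 32 48 h regions (12 gained, 32 lost), and with the widest 20000 it had 11 gained and 5 lost. The widest regions of Foxp1 were shared, such as chr6:99309160-99310100, with a naive peak of 872 bp and a 48 h peak of 818 bp. One of its promoter windows, chr6:99266466-99266765, had a naive peak only.

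Lef1, the gene of the HMG-box factor LEF1, had 29 regions in the naive list and 10 at 48 h (4 gained, 23 lost). Satb1, whose product folds chromatin into loops, had 19 and 5 (1 gained, 15 lost). With the widest 20000 peaks Lef1 had 1 gained and 2 lost regions and Satb1 0 gained and 4 lost, and with the widest 10000 Lef1 had 2 gained and 0 lost. Of these gains at Lef1, chr3:131112011-131112629 was shared in the full lists, with a naive peak of 582 bp that was too narrow to be kept. The TCF-1 gene Tcf7 had 3 gained, 8 lost and 1 shared region. Among its losses was the naive peak chr11:52282490-52282668 over one of its promoter windows, although a 48 h peak lay within 1 kb. Foxo1, which drives many of these genes, had 2 gained and 8 lost regions.

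The homing and survival genes of naive cells had smaller numbers, mostly with more losses in the full lists. Ccr7, the chemokine receptor that guides cells into lymph nodes, had 2 gained and 6 lost regions. Il7r had 0 gained and 2 lost, and S1pr1, which guides exit from lymph nodes, 2 and 3. Klf2, a quiescence factor that acts on S1pr1, was the member with more gains, with 1 gained, 0 lost and 2 shared regions. The antiproliferative genes Btg1, Btg2 and Tob1 had 0, 1 and 1 gained and 4, 5 and 3 lost regions. Klf3 had 0 gained and 4 lost, Slfn2 2 and 6, Nsg2 1 and 6 and Actn1 3 and 5. Dapl1 with 3 and 3 and Igfbp4 with 1 and 1 were even. At equal length S1pr1 had 2 gained and 1 lost, Actn1 3 and 1, Dapl1 4 and 2 and Igfbp4 1 and 0, so that these 4 had more gains, and Btg2 and Tob1 were even with 1 and 1. Without Foxp1 the list had 42 gained and 142 lost regions.

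**Figure D3:**
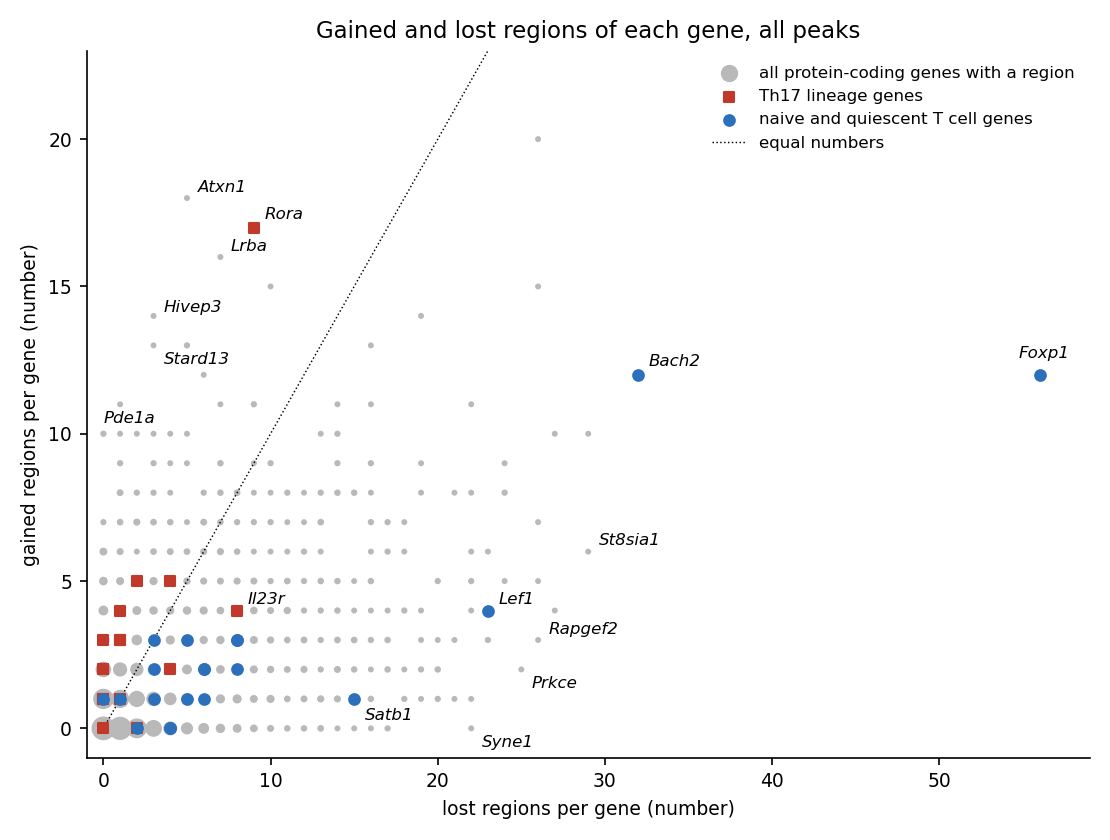
Lost regions (x axis, number) and gained regions (y axis, number) of each protein-coding gene with a region, all peaks. Grey dots grow with the number of genes at that point, red squares are Th17 lineage genes, blue circles are genes of naive and quiescent T cells, and the dotted line marks equal numbers. Atxn1 with 18 gained and 5 lost regions lies far above the line and Foxp1 with 12 and 56 far below it.

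The genes of T cell receptor signalling had more lost than gained regions. The list of 20 genes had 55 gained, 147 lost and 80 shared regions, and 17 members (85.0%, against 51.1% of all genes) had more losses. Gains made up 27.2% of the regions in 1 list only (21.2 to 33.9%), an interval that holds the 33.1% over all genes. Cblb, a ubiquitin ligase that restrains activation, had 3 gained and 19 lost regions, the kinase gene Fyn 8 and 21, Cd247 2 and 15 and Prkcq, which encodes PKCθ, 4 and 14. Of the 21 promoter windows of this list, 5 had a naive peak only and 0 a 48 h peak only, against 4.29% and 2.66% of all windows. These 5 belonged to Cd247, Cd3d, Cd3e, Prkcq and Ptpn22. Cd3d and Cd3e encode chains of the CD3 complex, and at Cd3e the naive peak covered all 300 bases and a 48 h peak lay within 1 kb. A 48 h peak also lay within 1 kb at Ptpn22. The naive peak at Prkcq covered 50 of the 300 bases, and that at Cd3d, 140 bp wide, was not kept at equal length. At equal length the list had 58 gained and 99 lost regions, and with the widest 10000 peaks 18 and 16.

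Genes induced by activation did not stand on the side of gains. The activation list had 35 gained and 74 lost regions, a share of gains of 32.1% (23.5 to 41.7%) against 33.1% at all genes, and at equal length 40 and 44. With the widest 20000 peaks it had 25 gained and 20 lost. Il2ra, for the α chain of the IL-2 receptor, had 2 gained, 7 lost and 5 shared regions, the costimulator gene Icos 1 and 6, the adhesion receptor gene Cd44 1 and 6, and the early response gene Nr4a1 0 and 5. Of the 95 regions of this list at 48 h, 60 were shared, as were 19614 of 30326 at all genes.

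Of the pathways that the cytokines engage, the IL-6 and STAT3 genes had 32 gained and 45 lost regions (at equal length 35 and 27) and the TGF-β genes 24 gained and 86 lost (25 and 56). In the first, Cish, a STAT-induced inhibitor, had 4 gained, 0 lost and 6 shared regions, and the kinase gene Jak1 had 8 gained and 13 lost. In the second, 0 of 14 members had more gains and 11 (78.6%) more losses. Tgfbr3 had 5 gained and 20 lost regions, Tgfbr2, the gene of the type II receptor, 3 and 17, the feedback inhibitor Smad7 2 and 8 and the co-repressor gene Ski 1 and 7. With the widest 10000 peaks the TGF-β list had 8 gained and 6 lost regions, and Tgfbr2 had more gains than losses there. The gained regions of Tgfbr2 at that length were shared in the full lists. Their 48 h peaks were 589, 478 and 762 bp wide, and their naive peaks of 317, 248 and 440 bp were too narrow to be kept.

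The list of BATF, IRF and AP-1 factors, of which BATF and IRF4 act in the Th17 program, had 20 gained and 30 lost regions. At equal length it had 22 and 15. Batf3 had 4 gained and 1 lost region and Irf4 1 gained and 8 lost. Irf8 had 0 gained and 4 lost. Members of the list thus had opposite balances, and its order turned with list length.

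Genes of other T helper fates had more losses than gains in the full lists, as most genes did. For Th1 genes there were 22 gained and 37 lost regions (25 and 22 at equal length), for Th2 genes 11 and 18 (15 and 15), for follicular helper genes 12 and 38 (15 and 25) and for regulatory T cell genes 21 and 58 (24 and 36). Runx3 had 3 gained and 7 lost regions, Stat4 4 and 9 and Gata3, the Th2 master factor, 0 and 5. A promoter window of Gata3 had a naive peak only, although a 48 h peak lay within 1 kb of its start. Rad50, whose introns carry the locus control region for the Th2 cytokines, had 3 gained and 0 lost. Tox had 5 and 22. Entpd1, which encodes the ectoenzyme CD39, had 0 gained and 13 lost, and Nrp1 8 and 14.

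Among growth and housekeeping genes, the part of shared regions differed by list. Ribosomal protein genes had 7 gained, 12 lost and 42 shared regions, and cell cycle and replication genes 22, 39 and 65. Their shares of naive regions lost, 22.2% and 37.5%, were below the 52.4% over all genes. The shares were 45.7% for glycolysis, 40.9% for housekeeping, 53.3% for amino acid transporter and 54.2% for chromatin remodeler genes. Each of these had an interval that holds the share over all genes. Glycolysis genes had 16 gained, 37 lost and 44 shared regions, and Eno1 and Pkm each had a promoter window with a 48 h peak only, although a naive peak lay within 1 kb of both. Amino acid transporter genes had 5 gained and 32 lost (6 and 21 at equal length), among them Slc7a11, the cystine transporter gene, with 1 and 8 and a naive peak only at its promoter. Chromatin remodeler genes had 24 gained and 78 lost (33 and 53), of which Arid1b had 4 and 27, and Chd7 1 and 15. Housekeeping genes had 9 gained, 27 lost and 39 shared regions (12 gained and 13 lost at equal length). Integrin and adhesion genes had 38 gained and 51 lost (43 and 39), and Itga1, the collagen-binding α1 chain, had 8 gained and 1 lost with a promoter covered at 48 h only. Phosphodiesterase genes had 44 gained and 79 lost (48 and 50), and Pde1a and Pde4d lay at opposite ends of that list, with 10 gained and 0 lost against 7 and 26.

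Regions also lay at marker genes of other cells, as they did at most genes (16077 of all 21887 protein-coding genes). All 20 T cell receptor signalling genes had regions in both lists. The B cell list had 9 gained, 18 lost and 16 shared regions at 11 of 12 genes, of which 7 gains lay at Ebf1. The myeloid list had 3 gained, 17 lost and 10 shared at 9 of 12 genes, including Itgam with 1 gained and 7 lost and Spi1 with 1 and 5. The list of CD8 T and NK cell genes had 7 gained, 14 lost and 8 shared at 11 of 12 genes. Genes of unrelated tissues had 5 gained, 6 lost and 6 shared at 10 of 14 genes. At equal length they had 6 gained and 1 lost, a share of gains of 85.7% (42.1 to 99.6%) that was above the 68.8% of the Th17 list (57.3 to 78.9%), with overlapping intervals. No region lay in either list at the B cell gene Ms4a1, at the myeloid genes Adgre1, Csf1r and Lyz2, or at the NK cell receptor gene Ncr1. Regions at other marker genes of such cells were listed in both conditions, and the part of such cells in the losses was not tested.

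**Figure D4:**
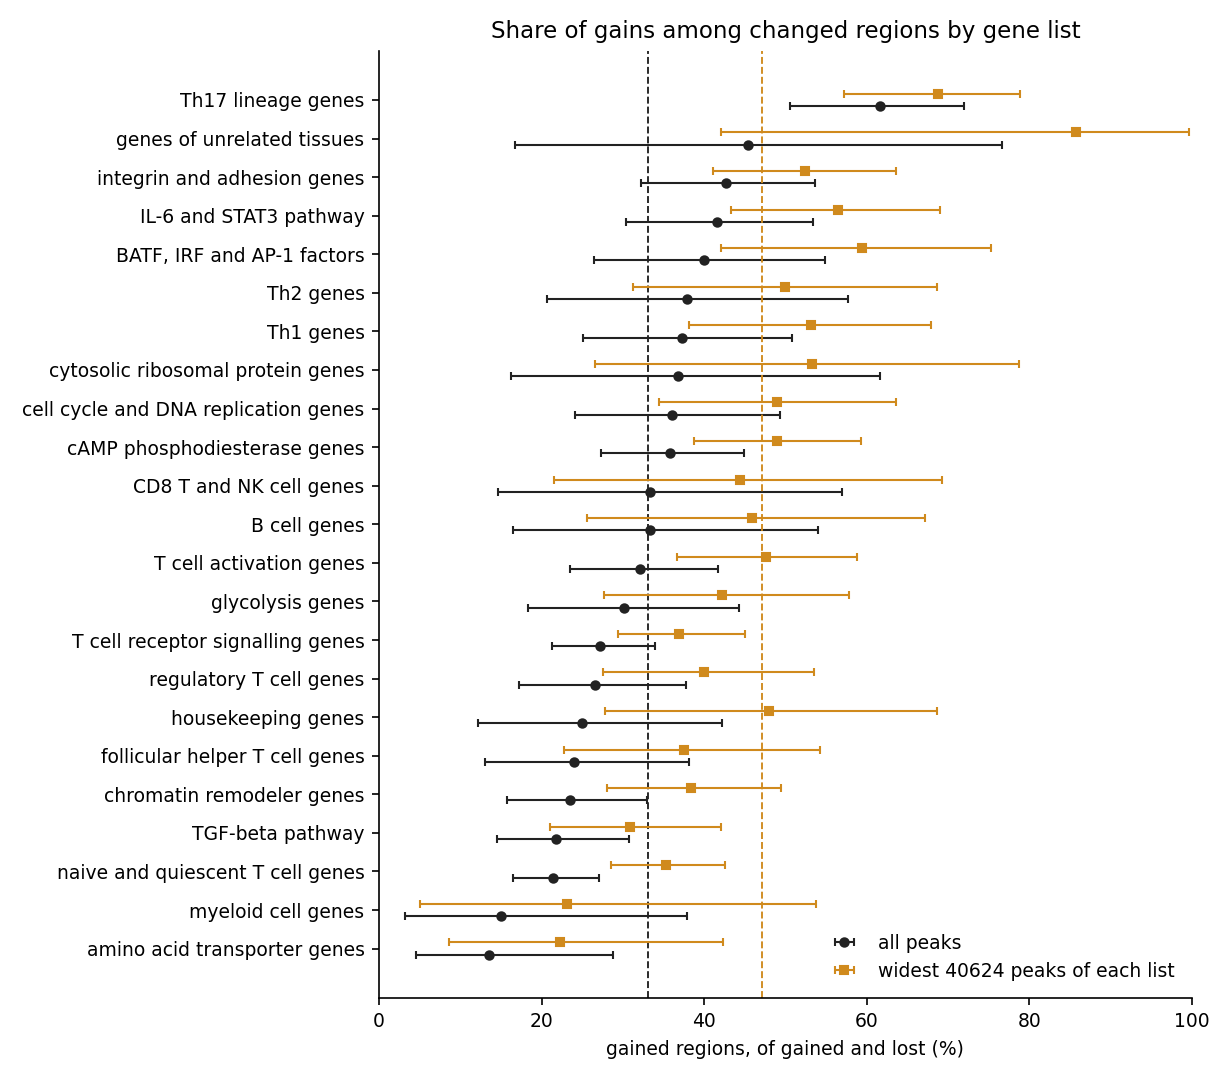
Gained regions as a share of the gained and lost regions (x axis, %) for each of the 23 gene lists, with exact 95% intervals, for all peaks (black circles) and for the widest 40624 peaks of each list (orange squares). Dashed lines mark the shares over all protein-coding genes, 33.1% and 47.2%. The Th17 lineage list lies highest with all peaks at 61.6%, and the amino acid transporter list lowest at 13.5%.

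The genes with the highest balance over the genome lay outside the program lists, apart from Pde1a. This ranking was not scaled to gene length or number of regions, and nor was that of the lowest balances. Atxn1 (chr13:45549755-45964991), the gene of a transcriptional co-repressor, had 18 gained and 5 lost regions. Hivep3, a zinc finger gene, had 14 and 3, Stard13, a GTPase-activating protein gene, 13 and 3, and Cacna1c, a calcium channel gene, 11 and 1. The calcium and calmodulin-dependent phosphodiesterase gene Pde1a (chr2:79834453-80196522) and the potassium channel gene Kcnk10 (chr12:98429432-98578213) each had 10 gained, 0 lost and 1 shared region. Rbpj, the DNA-binding effector of Notch, had 9 gained and 1 lost, Ralgps1 10 and 1, Sgip1 13 and 5 and Lrba, which protects CTLA-4 from degradation, 16 and 7. At equal length Rora (17 and 7) and Elmo1, a Rac activator (15 and 5), stood among the highest 10 in place of Rbpj (9 and 0) and Ralgps1 (10 and 1). With the widest 10000 peaks Atxn1 had 2 gained and 2 lost regions, and Stard13 had more losses than gains.

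Genes with the lowest balance, after Foxp1, came from several families. Rapgef2, a Rap1 exchange factor gene, had 3 gained and 26 lost regions, St8sia1, the GD3 ganglioside synthase gene, 6 and 29, Arid1b 4 and 27 and Prkce, which encodes PKCε, 2 and 25. Syne1, for a nuclear envelope spectrin-repeat protein, had 0 gained and 22 lost. Ripor2 had 5 and 26, the formin gene Diaph3 1 and 22 and the integrin gene Itga9 1 and 21. Bach2, described above, was also among the 10 lowest in the full lists, and at equal length it had 15 gained and 18 lost. At equal length each of the other 8 genes had more losses than gains, with 2 gained and 11 lost at Prkce as the smallest difference and 3 and 19 at Rapgef2 as the largest. Other genes among the 10 lowest at equal length were Spef2, a sperm flagellar protein gene, with 3 gained and 19 lost, the guanine nucleotide exchange factor gene Trio with 3 and 18, Pakap with 3 and 17, the bicarbonate transporter gene Slc4a4 with 1 and 15, Immp2l with 4 and 18, Chd7 with 1 and 14 and Med13l, for a Mediator subunit, with 1 and 14.

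Some genes had regions in 1 list only. Of 984 genes with no naive region, Cnih3, Glis1, Limch1, Ptpn5, Trank1 and Syn3 had the most at 48 h, with 6 each, followed by Msc, a bHLH repressor gene, Ocstamp, Nt5c1a and Gm1043 with 5 each. Of 792 genes with no 48 h region, Fibcd1 and Khdrbs3 had 9 naive regions each and Scnn1a and Ifitm10 had 8. Tnfrsf1a (chr6:125349723-125362483), which encodes TNF receptor 1, had 7 naive regions of 143 to 573 bp and 0 at 48 h, and can share regions with its neighbour Scnn1a. Padi3, Nnmt and Tceal3 also had 7, and Bhlhe41 and Pgpep1l had 6.

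Promoters were examined with the 300-base windows of the RefSeq table. Of 21263 windows at 17492 protein-coding genes, 9623 were covered in both lists, 565 at 48 h only (2.66%), 913 in naive cells only (4.29%) and 10162 in neither. Thus 8.67% of the windows covered in naive cells lacked a 48 h peak and 5.55% of those covered at 48 h lacked a naive peak, lower shares than for regions as a whole. A peak of the other list often lay close by. Of the naive-only windows, 537 (58.8%) had no 48 h peak within 1 kb of the start, and of the 48 h-only windows, 468 (82.8%) had no naive peak there.

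Among list members, the Th17 list had 3 of 18 windows covered at 48 h only (Il23r, Ccr6 and Il21), 0 in naive cells only, 1 in both and 14 in neither. These windows belonged to 13 of the 18 genes of the list, and a second window of Ccr6 was among those covered in neither. The naive list had 4 of 28 windows covered in naive cells only (Foxp1, Il7r and 2 of Tcf7), 1 at 48 h only (Igfbp4) and 18 in both. Gzmb, the granzyme B gene, was covered at 48 h only with a score of 97, and Gzma in naive cells only. Cd68, Hlx, Nkg7 and the housekeeping gene Gusb were also covered at 48 h only, although a naive peak lay within 1 kb of the start at Hlx and Gusb. Among all genes, the highest scores at windows with a 48 h peak only were 270 at Zfp13 and 225 at Tnfsf13b, the gene of the B cell survival factor BAFF, of which Zfp13 had a naive peak within 1 kb.

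Windows covered at 48 h only were rich in CpG. Their median GC content was 64.0% and their median number of CpG dinucleotides 21, close to windows covered in both lists (62.3% and 23) and above those covered in naive cells only (56.7% and 12) or in neither (49.3% and 4). Their peaks had low scores and were narrow, with a median 48 h score of 55 and width of 240 bp, against 139 and 544 bp for windows covered in both. The median naive peak was 321 bp at naive-only windows and 760 bp at windows covered in both. Promoter peaks listed in 1 condition only were thus narrower than those at promoters covered in both, and near or above the median width of all peaks of their list (273 bp naive, 234 bp at 48 h).

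The AP-1 motif TGANTCA, bound by FOS, JUN and BATF dimers, was found in 10.8% of the 48 h-only windows (61 of 565, 8.36 to 13.7%), in 5.91% of naive-only windows (4.47 to 7.65%), in 3.81% of windows covered in both and in 9.88% of those covered in neither. These and the motif shares below count matches anywhere in the window, also outside the peak. The peak covered a median of 144 bases of 48 h-only and 161 bases of naive-only windows. Among windows of 55 to 65% GC, a band chosen after seeing the data, the shares were 10.2% (19 of 186, 6.26 to 15.5%) at 48 h only, 3.55% (1.71 to 6.43%) in naive cells only, 3.68% in both and 7.17% in neither. The 48 h-only share was thus above those of the other covered windows and near that of uncovered ones, and within the GC band its interval touched that of the naive-only windows. Of the 10 windows with the highest 48 h score among those covered at 48 h only, the AP-1 motif lay under the peak at Tnfsf13b, Adgrg1 and Srxn1. Adgrg1 encodes an adhesion G protein-coupled receptor, and another promoter window of this gene had a naive peak only. Srxn1 encodes the antioxidant enzyme sulfiredoxin. These stretches are shown with the match in capitals, 5′ to 3′ on the plus strand of GRCm38.p6, because they join a 48 h-only peak with the motif.
Tnfsf13b at -127 (window chr8:10006383-10006682): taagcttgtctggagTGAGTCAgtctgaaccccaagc
Adgrg1 at -141 (window chr8:94984149-94984448): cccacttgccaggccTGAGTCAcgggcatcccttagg
Adgrg1 at -59: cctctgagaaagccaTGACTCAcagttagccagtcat
Srxn1 at -102 (window chr2:152105274-152105573): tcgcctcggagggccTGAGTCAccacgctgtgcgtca
Srxn1 at -45: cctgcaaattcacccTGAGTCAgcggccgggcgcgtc
The AP-1 match at Gzmb, at -58 (window chr14:56262285-56262584, minus strand), also lay under its 48 h peak, and its stretch was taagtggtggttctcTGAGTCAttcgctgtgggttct. At Ccr4 the match lay under a naive peak.

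The ETS motif CCGGAAG, found at many constitutive promoters, was in 21.8% of windows covered in both lists (21.0 to 22.7%), 7.67% of naive-only windows, 3.19% of 48 h-only windows and 2.67% of uncovered ones, and 11.6% of all. The NRF1 motif GCGCATGCG was in 4.58%, 0.986%, 1.06% and 0.433% of the same classes and 2.35% of all windows. The CRE motif TGACGTCA was in 3.77%, 0.876%, 2.83% and 0.866%, and in 2.23% of all. The ETS share also stayed low within the GC band, at 5.38% of 48 h-only and 12.1% of naive-only windows against 24.2% of windows covered in both.

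The IRF, RUNX and TCF/LEF motifs were found at lower shares in 48 h-only than in naive-only windows when all windows were counted. The IRF motif GAAANNGAA was in 3.89% of them (2.46 to 5.84%), against 11.1% of naive-only (9.10 to 13.3%) and 8.15% of all windows. The RUNX motif TGTGGT was in 10.97% and 16.3% (14.97% of all) and the TCF/LEF motif CTTTGA in 9.91% and 14.8% (14.4% of all). Within the band of 55 to 65% GC these differences were smaller and the intervals overlapped. There the IRF motif was in 4.30% of 48 h-only windows (1.88 to 8.30%) and 7.80% of naive-only windows (4.95 to 11.6%), the RUNX motif in 14.0% and 17.4%, and the TCF/LEF motif in 10.8% and 10.3%. The STAT motif TTCNNNGAA was in 4.78% of 48 h-only, 7.56% of naive-only and 7.69% of all windows, and the first 2 intervals overlapped (3.17 to 6.88% and 5.93 to 9.47%). The RORE core was in 12.9% of 48 h-only windows (10.3 to 15.97%) and 12.7% of naive-only windows (10.6 to 15.04%), and within the GC band in 18.3% (13.0 to 24.6%) and 12.4% (8.80 to 16.8%), again with overlapping intervals.

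**Figure D5:**
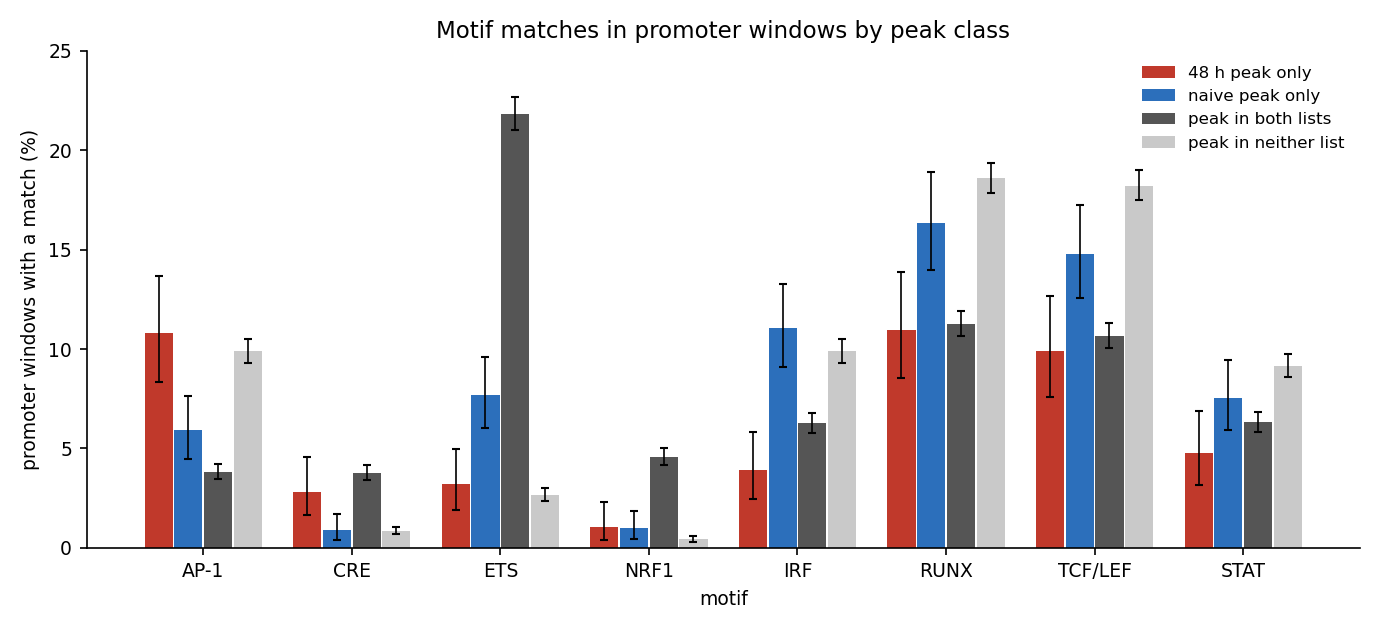
Share of promoter windows (y axis, %) with a match on either strand to each of 8 motifs (x axis), for windows with a 48 h peak only (565 windows), a naive peak only (913), peaks of both lists (9623) or of neither (10162). Bars give the share and whiskers the exact 95% interval, and the ETS bar of windows covered in both lists, at 21.8%, is the highest while the AP-1 bar of 48 h-only windows stands at 10.8%.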

How the data were processed

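The data were deposited lists of ATAC-seq peaks from naive CD4+ T cells and from cells after 48 h of Th17 culture, 1 list per condition. Among the tools in the submitters' processing notes are MACS2 2.2.6, a peak caller, Bowtie2 2.3.4.1, an aligner, SAMtools 1.9, and deepTools. The build is named there as GRCm38 and as mm10, synonyms for 1 assembly. For the calling threshold, filters, any Tn5 shift of reads and any pooling of libraries, nothing is given in the sources used here. The authors deposited a start and end for each peak and, in the 48 h list, a whole-number score from 30 to 1260, whose scale is not stated and which was used only within that list. Peak numbers skip 4446 values in the naive list and 4606 in the 48 h list, and 1 naive line without values was left out. Coordinates are given 1-based on GRCm38/mm10.

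Merging, widths, positions, gene assignment and motif searches were computed with Python 3.11.15, pandas 2.3.3, numpy 2.4.6 and SciPy 1.17.1, and figures with Matplotlib 3.10.9. Merging and gene assignment were tested on simulated data. Genes and promoter windows came from RefSeq on GRCm38.p6. The promoter table used holds no windows of chromosome 18, with 511 genes. Shares have exact Clopper-Pearson 95% intervals. No test across cultures was possible.

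The regions, the 23 gene lists and the motifs were chosen with earlier results of these data known. Named genes are the 10 with the highest and the 10 with the lowest balance, with all peaks and at equal length, the 10 with the most regions and none in the other list, all members of the Th17 and naive lists, and up to 4 members of each other list with the most unequal numbers. Named promoters are those of list members covered in 1 list only and the 10 with the highest score or widest peak, and named windows of 1 Mb are the 5 richest in gained regions and the 5 richest in lost ones. Alternatives were equal and shorter list lengths, minimum width and score, a stricter overlap, single peaks, autosomes alone and other rules for assigning regions to genes. A few members of these lists are counted in the list totals and are not reported here by name.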

Additional observations from a re-analysis of the deposited data

How the results depend on the processing

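The equal-length setting changed the number of lost regions to 19038, the shares lost and gained to 47.3% and 44.6%, and the genes with more gains and with more losses to 4956 and 5414. When 20000 peaks were kept in each list there were 7683 gained, 8223 lost and 11680 shared regions, 41.3% of naive regions were lost, and 3739 genes had more losses. With the widest 10000 these numbers were 3417, 3500, 6482, 35.1% and 2682, and 34.5% of 48 h regions were gained. With only the peaks of each list that reached its median width, there were 6811 gained, 13645 lost and 12849 shared regions, with 51.5% lost and 34.6% gained. With 48 h peaks at or above the median score alone there were 5493 gained and 14487 shared regions, 72.6% lost and 27.5% gained, and 869 genes with more gains. An overlap of at least 50% of the shorter peak gave 56.7% lost and 40.5% gained, and peaks counted singly 55.4% and 37.2%.

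In shorter lists, regions with a peak in both full lists can count as gained or lost, because narrower peaks of the other list are left out. Some directions turned with the widest 20000 peaks of each list. The balances were then 4 for the naive list, 5 for the T cell activation genes, 6 for the glycolysis genes, 5 for the housekeeping genes, 6 for Bach2 and 3 for Foxp1. With the widest 10000 they were 9 for the naive list, 7 for the activation genes, 2 for T cell receptor signalling, 2 for the TGF-β pathway, 6 for the cell cycle genes, 4 for the housekeeping genes, 1 for Itga4, 2 for Lef1, 2 for Bach2, 1 for Arid1a, 4 for Foxp1, 3 for Tgfbr2 and 1 for Entpd1, and -1 for Stard13 and for Itga1. The Th17 list had a balance of -14 when the 48 h peaks below the median score were left out, a setting that shortens the 48 h list alone. Of the 23 lists, 1 had more gains in the full lists, 7 at equal length and 11 at 10000 peaks.

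Depth is unknown. No paired analysis was possible because each condition had 1 list, and no replicate was left out for the same reason.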

Other observations

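Single regions with the highest 48 h score among the gained ones lay away from the Th17 genes. The first, with a score of 322, was chr13:16738332-16738658, 118813 bp from Sugct. Others lay inside Sgce (312), inside the zinc finger gene Zbtb20 (287), inside Il1rl1, which encodes the IL-33 receptor (274), 25784 bp from Ezh2, the Polycomb methyltransferase gene (288), and 26304 bp from Tet2, a DNA demethylase gene (275). The region near Tet2, chr3:133436317-133437372, was 1056 bp wide, and the nearest naive peak lay 24161 bp away. Of the widest lost regions, chr3:148850065-148851365 inside Adgrl2 was 1301 bp wide, with the nearest 48 h peak 34996 bp away, and chr13:112000733-112002015 lay 182463 bp from Map3k1, a kinase gene. Another wide lost region, within 1 kb of an end of Chl1 (1308 bp), had a 48 h peak 196 bp away.

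Gained and lost regions were also counted in windows of 1 Mb, where the medians over 2138 windows were 6 gained, 11 lost and 8 shared. The window with the most gains, chr15:62000001-63000000, had 34 gained and 18 lost regions, and the last protein-coding gene before it is Myc, the growth regulator, which ends at 61990361. The window chr5:53000001-54000000 had 32 gained regions, of which 9 lay at Rbpj, and 7 lost. In chr3:37000001-38000000, which holds Il2, Il21 and Fgf2, there were 31 gained and 32 lost. The windows chr11:4000001-5000000 and chr11:76000001-77000000 also had 31 gained each, with 16 and 19 lost. The most losses, 67 against 15 gains, were counted in chr6:99000001-100000000, where 54 of them lay at Foxp1. The next windows had 66 losses against 16 gains, with 4 losses at Btg1, and 64 against 15, with 8 at Foxo1. Windows with 61 losses each followed, with 19 of them at Dock9 (15 gains) and 6 at Ddx39b (17 gains). The gene named is the one with the most losses in its window. Gained regions lay a median of 9701 bp from the nearest naive peak and lost regions 7263 bp from the nearest 48 h peak, and 10.4% and 13.5% of them had such a peak within 500 bp.

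By chromosome, the share of naive regions lost ran from 49.2% on chromosome 11 to 61.4% on chromosome 12 among the 19 autosomes, and was 62.2% on the X chromosome. The share of 48 h regions gained ran from 32.1% on chromosome 17 to 45.6% on chromosome 13, and was 32.6% on the X chromosome.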
